A study of Mus musculus with 6 samples.

Results

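Among the expressed features deposited for mouse brain are cDNA clones of the FANTOM3 collection that overlap a deposited gene on the opposite strand and none on their own. Such clones were taken as antisense to their partner gene when they overlapped it by at least 1 base and had a summed count of at least 30 over the 6 libraries. This gave 2810 clones of 33353 clone rows (8.43%) and of 56826 rows in all (4.94%). They lay at 2459 loci, where overlapping clones on 1 strand count as 1 locus, and had 2124 different partners. A clone was called a start clone when it overlapped the partner's first 5 kb (981 clones), an end clone when it overlapped the last 5 kb and not the first (701), and a middle clone otherwise (1128). Of the start clones, 303 also overlapped the last 5 kb, because the partner was short or the clone long. The partner was a protein-coding gene for 2604 clones and a lncRNA for 81. For 213 clones the 5′ end lay at a RefSeq start on the clone's own strand, so a gene outside the deposited rows may run there. Among these 213 were the clones named below in Mical3 (at Gm43915) and Homer2 (at Gm44570). An uninterrupted alignment, with a span equal to its length, was recorded for 1768 clones, and 1042 were spliced. More than 1 partner was overlapped by 147 clones, and 71 had the same counts in all libraries as another clone of the set, so the clones are not independent of each other.

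The libraries came from brain of adult male C57BL/6 mice of 8 to 9 weeks. In the ischemia/reperfusion group (3 libraries) a filament closed the middle cerebral artery for 60 min and was then withdrawn, with tissue taken at 6 h of reperfusion. The sham group (3 libraries) had the same chloral hydrate anesthesia and neck surgery with no filament. The labels do not say which part of the brain was taken, nor that the 3 libraries of a group are 3 animals, so the p-values below measure the spread between these libraries, which may be technical. The libraries held 45425867 to 49686109 counts. The ischemia/reperfusion libraries differed more from each other than the sham libraries did, with a chi-square per row of 22.0 to 29.7 against 8.26 to 14.4. Of the marker lists, neuron markers summed to 3808 to 3865 CPM (counts scaled to library size) in sham and 3506 to 4104 in ischemia/reperfusion. Blood and neutrophil markers summed to 43.7 to 69.3 and 65.5 to 105.7 CPM, with 3 of 5 higher at an unadjusted p under 0.05. Microglia markers summed to 69.0 to 89.3 and 79.0 to 120.3 CPM, with 2 of 5 higher at that p, and 1 neuron and 1 astrocyte marker were lower. Oligodendrocyte markers summed to 3575 to 4430 CPM in sham and 3043 to 7772 in ischemia/reperfusion. Choroid plexus markers summed to 542.3 to 756.8 CPM in sham and 17.4 to 1196 in ischemia/reperfusion. No matched marker was at 0 in all libraries, and the part of these differences in the results below was not tested.

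Antisense transcripts are read from the strand opposite to a gene. Those at a gene's start often come from promoters that fire in both directions, those at its end from a neighbouring gene that runs towards it, and those in the middle from promoters inside introns. Some, such as the transcript antisense to Ube3a in neurons, are known to silence the gene they cover, and others have no known effect on it.

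Some of the start clones reach the partner's promoter. Of 981 start clones, 713 had a partner with a promoter sequence in the RefSeq table (GRCm38.p6). The 250 bases before the partner's start were touched by 523 clones and held the 5′ end of 45. Shown are the windows of the 4 start clones named below for their difference between the groups or their gene list whose span reaches the window (all 4 cover it whole), and of the 2 clones with the smallest p among those that begin inside it, chosen after their values were seen. Each is written 5′ to 3′ on the partner's strand. Capitals mark matches on either strand to GGGCGG (the GC box), to CCAAT (the CCAAT box), to TATAAA (the TATA box), to TGACGTCA (the cyclic AMP response element) and to GAANNTTC, the core of a heat shock element, which was added after the data were seen. Overlapping matches run together.
Hspa1b promoter: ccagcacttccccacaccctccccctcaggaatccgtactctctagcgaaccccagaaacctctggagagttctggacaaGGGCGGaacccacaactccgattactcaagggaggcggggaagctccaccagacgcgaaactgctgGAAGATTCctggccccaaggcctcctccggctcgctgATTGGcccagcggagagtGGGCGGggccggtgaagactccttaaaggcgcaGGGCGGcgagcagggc
Stk40 promoter: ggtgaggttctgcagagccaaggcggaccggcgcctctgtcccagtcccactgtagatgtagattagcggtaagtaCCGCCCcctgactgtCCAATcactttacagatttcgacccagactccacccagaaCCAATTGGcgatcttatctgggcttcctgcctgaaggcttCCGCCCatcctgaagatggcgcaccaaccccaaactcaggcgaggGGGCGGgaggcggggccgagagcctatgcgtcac
Fosl2 promoter: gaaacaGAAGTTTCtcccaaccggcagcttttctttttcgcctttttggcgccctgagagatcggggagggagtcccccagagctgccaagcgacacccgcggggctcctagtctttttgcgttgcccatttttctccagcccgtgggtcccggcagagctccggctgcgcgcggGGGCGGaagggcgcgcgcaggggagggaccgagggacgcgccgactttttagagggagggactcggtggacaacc
Pnpla2 promoter: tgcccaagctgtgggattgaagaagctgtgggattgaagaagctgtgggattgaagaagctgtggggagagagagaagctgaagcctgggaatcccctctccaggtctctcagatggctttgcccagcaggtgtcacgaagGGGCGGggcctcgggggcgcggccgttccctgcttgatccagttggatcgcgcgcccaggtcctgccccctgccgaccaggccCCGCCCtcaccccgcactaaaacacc
Alad promoter: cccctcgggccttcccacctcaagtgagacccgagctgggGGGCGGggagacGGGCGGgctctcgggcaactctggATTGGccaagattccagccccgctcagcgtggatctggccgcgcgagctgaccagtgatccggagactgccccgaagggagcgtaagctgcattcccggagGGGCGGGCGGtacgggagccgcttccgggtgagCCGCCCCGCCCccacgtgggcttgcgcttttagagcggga
Csrnp1 promoter: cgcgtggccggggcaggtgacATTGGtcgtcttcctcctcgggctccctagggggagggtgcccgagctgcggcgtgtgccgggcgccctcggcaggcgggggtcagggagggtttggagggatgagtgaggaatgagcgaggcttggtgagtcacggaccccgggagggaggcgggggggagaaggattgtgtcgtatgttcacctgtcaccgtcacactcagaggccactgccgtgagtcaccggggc
The windows lie at chr17:34959239-34959488 (minus strand), chr4:126103707-126103956 (plus), chr5:32136222-32136471 (plus), chr7:141454938-141455187 (plus), chr4:62519910-62520159 (minus) and chr9:119983024-119983273 (minus). The Alad antisense clone begins at base 190 of its window and runs away from the RefSeq start of the gene, and the clone antisense to Csrnp1 begins at base 128. Both overlap their partner because the partner's deposited start lies upstream of the RefSeq start.

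The GC box was in all of these windows but that of Csrnp1. The Hspa1b window held 3 GC boxes, 1 CCAAT box and 1 GAANNTTC, the Stk40 window 3 GC boxes and 3 CCAAT boxes, the Fosl2 window 1 GC box and 1 GAANNTTC, the Pnpla2 window 2 GC boxes, the Alad window 6 GC boxes and 1 CCAAT box, and the Csrnp1 window 1 CCAAT box. None of the 6 held TATAAA or TGACGTCA. Of 32851 promoter windows of this length in the table, 32.7% held the GC box, 33.8% CCAAT, 12.4% TATAAA, 1.55% TGACGTCA and 6.69% GAANNTTC. In the 825 windows of partners of start clones the shares were 52.0%, 35.3%, 7.15% and 1.94% for the first 4 motifs, and the median number of CG dinucleotides was 14 against 6. The background was not limited to expressed genes, and partners of end and middle clones were not examined, so these shares may not be particular to start clones. In the 41 windows in which a clone began, the GC box was in 68.3% and the median number of CG dinucleotides was 25. The 45 clones that began there had a median RPKM ratio to the partner of 0.135 (RPKM, counts scaled to row length and library size), a median log2 fold change of 0.02 and partners with a median of -0.08. Among them 1 was higher at an unadjusted p under 0.05 and 2 were lower.

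A limit applies to every clone level. The library kit named in the labels does not mark strand, and the sources used here do not give the strand setting of the counting, so reads of a clone and of its partner cannot be told apart where their exons overlap. Where both the clone and the partner were 1 block, with at least 200 shared bases and a partner of at least 5 CPM, the clone level could be set against the level that the partner's reads alone would give if they were counted on both rows. For the 21 such pairs the ratio of observed to so computed RPKM had a median of 1.20 and ran from 0.597 to 2.93, and none was under 0.5. The clones of these 21 pairs, all start clones, thus mostly stood near or above the level of the partner's reads alone. End clones, middle clones and spliced partners were not checked in this way. A middle clone inside an intron shares no exon with the partner's mature transcript, but unspliced partner RNA would be counted on it.

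Start, end and middle clones differed in level relative to the partner. The median RPKM ratio of clone to partner was 0.311 for start clones, 0.457 for end clones and 0.0939 for middle clones. In the single libraries the median ratio ran from 0.290 to 0.311 for start clones, from 0.423 to 0.456 for end clones and from 0.0708 to 0.103 for middle clones. For middle clones the 3 sham values (0.0823, 0.0708 and 0.0728) lay below the 3 ischemia/reperfusion values (0.0900, 0.103 and 0.0946). A ratio above 1 was seen for 12.3% of start clones, 17.5% of end clones and 8.87% of middle clones (4.96% without partners whose deposited span merges distant copies). The clones' 5′ ends lay a median of 827 bases inside the start of the partner for start clones. Of the end clones 361 of 701 began beyond the partner's end, so that both transcripts ran towards each other, while the middle clones lay wholly inside the partner by definition. The median partner span was 135883 bases for middle clones.

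No antisense clone passed an adjusted p of 0.05 in the comparison of ischemia/reperfusion with sham (edgeR's quasi-likelihood test, Benjamini-Hochberg adjustment over all 40170 rows tested, of which 1 passed, 0.00249%). Of the 2810 clones, 2518 passed the filter on low counts and were tested. At an unadjusted p under 0.05, 224 clones were higher (8.90%, against 8.73% of all rows) and 74 lower (2.94%, against 6.9%). The share on the higher side was thus near the background and that on the lower side was below it. DESeq2 gave 21 higher and 8 lower clones at an adjusted p under 0.05, of 2518 clones tested, beside 584 of 40170 rows tested over the whole table. Of the 2518 clones, 1917 were given an adjusted p by DESeq2. By limma-voom 1 clone was called, and 4 of 40170 rows. The count turned on single libraries. Without ischemia/reperfusion replicate 1, edgeR called 41 clones higher and 9 lower of 2574 tested, beside 1057 of 40919 rows. Without ischemia/reperfusion replicate 2 it called 1 and 1 of 2584, beside 43 of 41019 rows. Leaving out each of the other libraries in turn gave 0 clones. Of the 50 called without replicate 1, 16 were among the 29 of DESeq2. The 3 ischemia/reperfusion values lay above all sham values for 377 clones (14.97%, against 14% of all rows) and below them for 104 (4.13%, against 6.99%). In bulk tissue, fewer cells of a type and less RNA per cell cannot be told apart, and this holds for every level below.

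**Figure D1:**
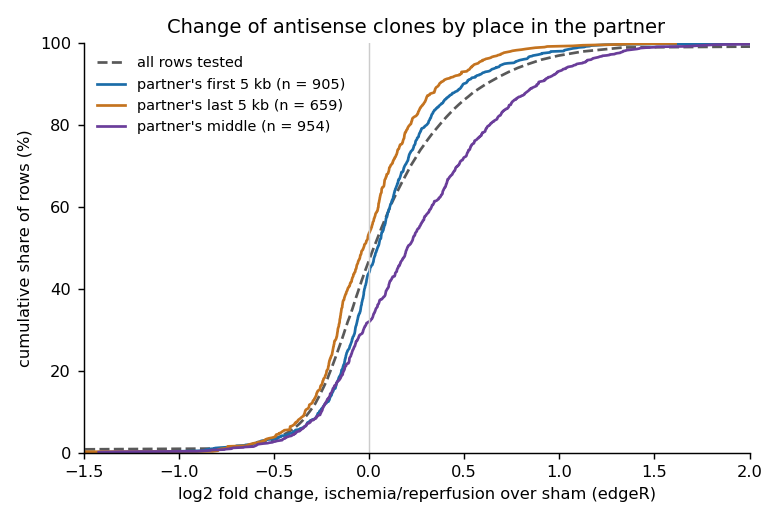
Cumulative share of clones (y axis, percent) with a log2 fold change of ischemia/reperfusion over sham (x axis, edgeR) at or below each value, for the 3 position classes and for all rows tested (dashed). The middle clones lie to the right of all rows and the end clones to the left; 4 clones fall outside the plotted range.

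The clones' differences varied with their place in the partner. Start clones had a median log2 fold change of 0.05 (905 tested), end clones of -0.03 (659) and middle clones of 0.20 (954), beside 0.02 for all rows. With upper-quartile factors the end median was 0.01 and that of all rows 0.07, so the end clones were below all rows under both scalings. With the TMM factors, however, gene rows had a median of -0.0357 and clones that overlap no gene row one of -0.0193. The end clones, at -0.0282, lay between these. Of the start clones 60 were higher at an unadjusted p under 0.05 and 19 lower, of the end clones 25 and 43, and of the middle clones 139 and 12. These are 6.63% and 2.10%, 3.79% and 6.53%, and 14.6% and 1.26% of those tested, beside 8.73% and 6.90% of all rows. Of the 139, 9 passed the filter on low counts only through the ischemia/reperfusion libraries and had to differ. The partners had class medians of -0.04, -0.03 and -0.00268. Middle clones had few counts, and rows with few counts tended to be higher in ischemia/reperfusion across the table. Rows under 1 CPM had a median of 0.26 and middle clones under 1 CPM one of 0.39, while rows of 1 CPM or more had -0.02 and such middle clones 0.10. Start clones of 1 CPM or more had a median of 0.02 and end clones of -0.06.

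The medians were also taken in each library, as log2(CPM + 0.5) minus the row's sham mean, with CPM first divided by the scaling (TMM) factors. Middle clones had medians of 0.00567, -0.0022 and 0.00429 in the sham libraries and 0.07, 0.19 and 0.12 in the ischemia/reperfusion libraries. The 3 ischemia/reperfusion libraries thus all lay above the sham libraries, and replicate 1 was the lowest of them. End clones had -0.00925, -0.04 and -0.03 in ischemia/reperfusion, and all rows 0.00944, 0.00945 and 0.02. Within the middle class, medians by the RPKM ratio to the partner were taken without the TMM factors. This raises their ischemia/reperfusion values, so they are set beside each other only. The 453 clones with a ratio under 0.1 had 0.17, 0.29 and 0.23, and the 498 with a larger ratio 0.06, 0.13 and 0.09 (3 tested middle clones had a partner listed at 0 and no ratio). By edgeR the median log2 fold change of the middle clones was 0.40 at a ratio under 0.1, 0.11 from 0.1 to 0.5, 0.07 from 0.5 to 2 and -0.03 above. Start and end clones at a ratio under 0.1 also had the higher medians, 0.12 against 0.04 from 0.1 to 0.5 for start and 0.10 against 0.01 for end. The low-ratio middle clones had a median level of 0.426 CPM against 1.77 from 0.1 to 0.5, a level at which all rows ran higher, and the part of level in this difference was not tested. Of the middle clones at a ratio under 0.1, 89 were higher at an unadjusted p under 0.05 (19.6%) and 1 was lower (0.221%). For all rows under 1 CPM these shares were 10.5% and 1.04%. Some of the 89, such as the clones in Nek6 and Rora, passed the filter on low counts only through the ischemia/reperfusion libraries. Across 951 middle clones, which share libraries and often loci, the rank correlation of the log2 fold change with the ratio was -0.337. By the partner's span, the median was -0.07 under 30 kb, 0.17 from 30 to 100 kb, 0.31 from 100 to 300 kb and 0.30 above.

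**Figure D2:**
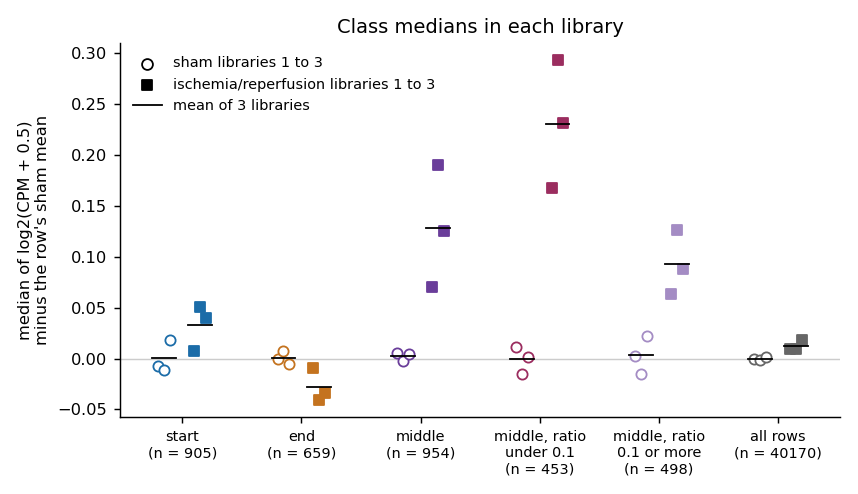
Median over clones of log2(CPM + 0.5) minus the row's sham mean (y axis) in each of the 6 libraries, by class (x axis), with open circles for sham, filled squares for ischemia/reperfusion and a line at the mean of 3. All 3 ischemia/reperfusion values of the middle clones lie above the sham values. The groups by RPKM ratio to the partner were drawn without the TMM factors, unlike the classes, which raises their ischemia/reperfusion values. Between these groups, clones with a ratio under 0.1 have the higher values.

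Clones that run in the gene's own direction were also higher in the middle of genes. Those of 1 block there had a median of 0.32 on the log2 scale (7189 tested) and a median RPKM ratio to the gene of 0.0334. Antisense clones of 1 block in the partner's middle had a median of 0.19 (581 tested, leaving out partners of merged span). At an unadjusted p under 0.05, 17.5% of the first kind and 13.4% of the second were higher. The 2 kinds were not tested against each other.

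Among the start clones, the clone antisense to Hspa1b (fantom3_7330403C04, chr17:34957619-34959819, plus strand) had the largest difference of those named. Hspa1b encodes the inducible Hsp70 chaperone, and the clone covers its promoter window printed above and the first part of the gene. Its level was 9.38, 13.8 and 10.1 CPM in the sham libraries against 399.4, 108.4 and 244.8 after ischemia/reperfusion. All ischemia/reperfusion values lay far above the sham values and differed widely among themselves. The log2 fold change was 4.44 ± 0.59 (SE; edgeR adjusted p = 0.15, DESeq2 adjusted p = 9.9e-14). Hspa1b itself had 14.7, 21.7 and 14.9 CPM in the sham libraries against 617.0, 170.1 and 402.4 after ischemia/reperfusion, a log2 fold change of 4.47 ± 0.59. The clone thus stood at the same share of its partner in both groups, and its difference from the partner was -0.04 ± 0.05 on the log2 scale. It is among the pairs checked above, at 1.10 times the RPKM that Hspa1b's reads alone would give if counted on both rows. Its difference therefore cannot be told apart from that of Hspa1b. Hspa1b has a near-identical copy, Hspa1a, and the sources used here do not say how reads of both were counted.

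The other start clones named on the higher side lay over Stk40 and Samd4. The clone antisense to Stk40, a pseudokinase gene (fantom3_1520401O13, chr4:126103532-126104659, minus strand), had 1.45, 1.41 and 1.76 CPM in the sham libraries against 3.36, 2.54 and 4.09 after ischemia/reperfusion. On the log2 scale its fold change was 1.05 ± 0.22 (edgeR adjusted p = 0.148), beside 0.76 ± 0.17 for Stk40. The antisense clone over Samd4 (fantom3_2810457G06), whose protein binds RNA, had 2.52, 2.56 and 2.50 CPM in the sham libraries against 4.34, 3.97 and 5.79 after ischemia/reperfusion. The groups did not overlap for either clone. The Samd4 clone's log2 fold change was 0.84 ± 0.19 (edgeR adjusted p = 0.15), beside 0.58 ± 0.13 for the gene.

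The clone over the start of Fosl2, a member of the AP-1 transcription factors (fantom3_5430405N01), had 5.35, 6.98 and 4.58 CPM in the sham libraries against 7.23, 11.2 and 9.91 after ischemia/reperfusion. Its log2 fold change was 0.69 ± 0.20 (edgeR adjusted p = 0.191), with groups that did not overlap in CPM. Once divided by the TMM factors they would overlap, at 0.969 for sham replicate 2 and 1.027 for ischemia/reperfusion replicate 1. For Hsp90aa1, a cytosolic chaperone, the antisense clone (fantom3_4932703K07) had 1.95, 1.95 and 1.70 CPM in the sham libraries against 2.72, 2.95 and 6.80 after ischemia/reperfusion. Replicate 3 was the highest by far. The log2 fold change was 1.09 ± 0.33 (edgeR adjusted p = 0.202) beside 0.22 ± 0.10 for Hsp90aa1, at an RPKM ratio of 0.00733.

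Of the clones that begin inside a promoter window, that antisense to Alad, an enzyme of heme synthesis (fantom3_B130014K12), had 1.63 ± 0.11 CPM in sham and 1.11 ± 0.19 in ischemia/reperfusion (SD, n = 3 each). On the log2 scale its fold change was -0.61 ± 0.24, and that of Alad -0.14 ± 0.11. The clone opposite to Csrnp1 (fantom3_1700019L13) had 0.437 ± 0.0987 and 0.857 ± 0.272 CPM, a log2 fold change of 0.91 ± 0.36, beside 0.40 ± 0.23 for the gene. By edgeR neither passed, with adjusted p = 0.265 and 0.268.

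On the lower side stood clones over 2 histone genes and the lipase gene Pnpla2. The antisense clone of Hist2h2bb (fantom3_6430517B15) had 121.8, 118.3 and 113.9 CPM in the sham libraries against 90.4, 94.2 and 97.2 after ischemia/reperfusion, and that antisense to Hist3h2a (fantom3_4930534G10) had 130.2, 133.8 and 141.0 against 127.4, 106.5 and 115.2. For both, every ischemia/reperfusion value was below every sham value, and their log2 fold changes were -0.39 ± 0.09 and -0.27 ± 0.09 (edgeR adjusted p = 0.15 and 0.227). The partners had -0.39 ± 0.09 and -0.25 ± 0.10. These clones stood at 1.21 and 2.93 times the RPKM that the partner's reads alone would give if counted on both rows. Histone genes are a family of near-identical copies, so these counts are uncertain. The clone antisense to Pnpla2, the adipose triglyceride lipase (fantom3_4930537F08), had 3.32, 2.89 and 2.78 CPM in the sham libraries against 1.98, 2.08 and 2.13 after ischemia/reperfusion, a log2 fold change of -0.59 ± 0.19 (edgeR adjusted p = 0.201) beside -0.66 ± 0.16 for Pnpla2.

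The start clones with the highest RPKM lay over abundant genes. They were antisense to Actb, cytoplasmic actin (387 RPKM, ratio 0.502), Ppia, cyclophilin A (299.9 RPKM, ratio 0.27), and Tspyl4 (284 RPKM, ratio 1.21). Their log2 fold changes were -0.12 ± 0.09, -0.24 ± 0.09 and -0.21 ± 0.13. The antisense clone over Ppia (fantom3_4930405N22) had 313.6 to 330.5 CPM in sham and 270.3 to 297.5 in ischemia/reperfusion, with no overlap, and the others overlapped. Ppia itself had -0.27 ± 0.09. The clone opposite to Nr1d1, the clock repressor Rev-erb alpha (fantom3_D930024E14), had 27.5 to 32.1 CPM in sham and 29.7 to 39.4 in ischemia/reperfusion, and its log2 fold change was 0.17 ± 0.13.

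Among the end clones, the 3 named on the higher side had partners that were also higher. The antisense clone of Frmd8 (fantom3_4931429L16) had 7.45, 7.52 and 8.04 CPM in the sham libraries against 11.6, 10.9 and 21.5 after ischemia/reperfusion, where replicate 3 was the highest. Its log2 fold change was 0.87 ± 0.24 (edgeR adjusted p = 0.184) beside 0.78 ± 0.21 for Frmd8, and it was 0.50 without ischemia/reperfusion replicate 3. The clone antisense to Dact1, a modulator of Wnt signalling (fantom3_4921528D17), had 3.06, 4.38 and 3.38 CPM in the sham libraries against 8.36, 5.01 and 5.64 after ischemia/reperfusion, 0.75 ± 0.22 on the log2 scale (0.50 without ischemia/reperfusion replicate 1) beside 0.63 ± 0.28. The antisense clone over Hpgds, the hematopoietic prostaglandin D synthase (fantom3_D430023M01), had 2.96, 3.20 and 2.68 CPM in the sham libraries against 4.76, 4.40 and 4.75 after ischemia/reperfusion. The groups were apart for these 3 clones. The Hpgds clone had 0.60 ± 0.16 (edgeR adjusted p = 0.176) and Hpgds 0.62 ± 0.17.

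Of the end clones on the lower side, that antisense to Megf9, which encodes a membrane protein with EGF-like domains (fantom3_F830001B04), had 81.9, 72.1 and 76.8 CPM in the sham libraries against 54.6, 64.3 and 60.9 after ischemia/reperfusion. On the log2 scale its fold change was -0.42 ± 0.10 (edgeR adjusted p = 0.153), and that of Megf9 -0.25 ± 0.12. The clone opposite to Slc24a2, a potassium-dependent sodium/calcium exchanger (fantom3_C630005J10), had 37.0, 31.96 and 34.1 CPM in the sham libraries against 22.4, 27.6 and 27.8 after ischemia/reperfusion, -0.46 ± 0.12 beside -0.22 ± 0.14. The antisense clone of Tmf1, a Golgi protein gene (fantom3_4731421E11), had 9.68, 9.85 and 9.52 CPM in the sham libraries against 7.68, 6.96 and 6.87 after ischemia/reperfusion, -0.49 ± 0.13 beside -0.25 ± 0.09. All 3 were lower in every ischemia/reperfusion library than in every sham library. The clone antisense to Mef2c, a neuronal transcription factor gene (fantom3_F830107F19), had 200.4, 218.8 and 209.6 CPM in the sham libraries against 189.6, 186.5 and 149.7 after ischemia/reperfusion, -0.31 ± 0.11 (edgeR adjusted p = 0.229).

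Most other abundant or listed end clones overlapped between the groups. Those antisense to Psd, an exchange factor for Arf6, Slc3a1, an amino acid transporter subunit, and Fxyd6, a regulator of the sodium pump, had log2 fold changes of -0.02 ± 0.11, -0.15 ± 0.11 and -0.26 ± 0.12, at 79.5, 73.8 and 70.3 RPKM. The antisense clone over Bace1, the beta-secretase whose antisense transcript is a described regulator (fantom3_5730407P16), had 31.8 to 40.2 CPM in sham and 35.1 to 42.1 in ischemia/reperfusion, and -0.05 ± 0.12. The clone over the end of Nrxn2, a presynaptic adhesion gene, had -0.05 ± 0.12, while that antisense to Rela, the NF-kB subunit p65, had 6.28 to 7.13 CPM in sham and 7.68 to 9.22 in ischemia/reperfusion with no overlap, and 0.29 ± 0.14 (edgeR adjusted p = 0.341).

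The 3 middle clones named on the higher side lay in Mgll, Kcnma1 and Mical3. The clone opposite to Mgll, the monoacylglycerol lipase that degrades an endocannabinoid (fantom3_E230020D19, chr6:88784330-88787451, minus strand), had 0.584, 0.665 and 0.634 CPM in the sham libraries against 1.63, 1.86 and 1.58 after ischemia/reperfusion. All ischemia/reperfusion values were above 2 times any sham value. The log2 fold change was 1.37 ± 0.25 (edgeR adjusted p = 0.123, DESeq2 adjusted p = 0.00536), while Mgll had 141.3 to 182.4 CPM in sham and 148.2 to 194.7 in ischemia/reperfusion and 0.01 ± 0.12. The antisense clone of Kcnma1, the BK potassium channel (fantom3_F830222P12, chr14:23935268-23940045, plus strand), had 4.13, 4.55 and 3.499 CPM in the sham libraries against 6.30, 8.56 and 8.59 after ischemia/reperfusion. Its log2 fold change was 0.89 ± 0.18 (edgeR adjusted p = 0.139), and that of Kcnma1 -0.05 ± 0.14. The clone antisense to Mical3, an actin-oxidizing enzyme gene (fantom3_4931417G19, spliced), had 1.43, 1.31 and 1.82 CPM in the sham libraries against 2.80, 2.93 and 3.48 after ischemia/reperfusion, 0.96 ± 0.21 beside 0.29 ± 0.12.

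Of the middle clones on the lower side, that in 4930547E14Rik had a partner with almost no counts. The clone (fantom3_C030018C04, chr16:59642029-59643878, minus strand) had 15.8, 16.2 and 16.0 CPM in the sham libraries against 9.62, 12.0 and 10.2 after ischemia/reperfusion, with -0.65 ± 0.13 (edgeR adjusted p = 0.139, DESeq2 adjusted p = 0.00251). The partner row was at most 0.11 CPM in any library. That row counts 549 exon bases of a 36049-base span, and the part of unspliced partner RNA in the clone's counts was not tested. Further clones there, fantom3_9330168O09 and fantom3_6330416E03, had -0.60 ± 0.14 and -0.59 ± 0.16, and they overlap the first or each other. The antisense clone over A230056P14Rik (fantom3_1110027G09) had 29.3, 30.3 and 24.0 CPM in the sham libraries against 19.0, 20.3 and 19.9 after ischemia/reperfusion, -0.56 ± 0.12 beside -0.27 ± 0.12. The clone opposite to Cdc73, a subunit of the Paf1 complex (fantom3_C130066G05), had 4.25, 3.43 and 3.85 CPM in the sham libraries against 2.14, 2.47 and 2.64 after ischemia/reperfusion. On the log2 scale its fold change was -0.72 ± 0.18 (edgeR adjusted p = 0.158), and that of Cdc73 -0.10 ± 0.12.

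The middle clones with the highest RPKM overlapped between the groups. They were antisense to Syn2, a synaptic vesicle protein gene (96.9 RPKM), Tcf20, a transcriptional coregulator (83.8 RPKM), and the Snora19 row (63.7 RPKM), with -0.21 ± 0.11, -0.14 ± 0.10 and 0.03 ± 0.12. The Snora19 row is a small nucleolar RNA of 111 bases whose deposited span is 35832150 bases, and it is the partner of 49 clones. In all 61 clones had a partner whose span was over 10 times its RefSeq length. Without them the middle clones had a median log2 fold change of 0.22.

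**Figure D3:**
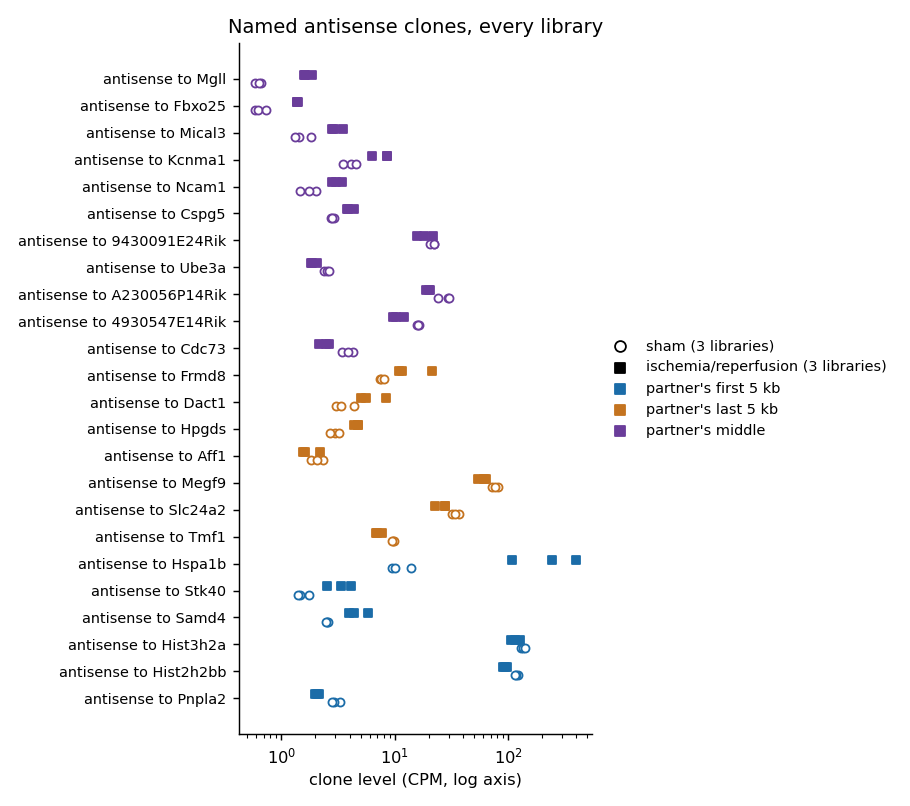
Level in CPM (x axis, log scale) in each of the 3 sham libraries (open circles) and 3 ischemia/reperfusion libraries (filled squares) for the clones named for their difference between the groups or from the partner, labelled by partner and coloured by position. The antisense clone of Hspa1b runs from 9.38 to 399.4 CPM, while the clone antisense to Mgll runs from 0.584 to 1.86 CPM.

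The ratio of each clone to its partner was then tested within the libraries. Of 2429 clones tested with their partner, none passed an adjusted p of 0.05 (edgeR's quasi-likelihood test over 21048 pairs of a clone and a gene on either strand, 0% called). At an unadjusted p under 0.05 the clone was higher against its partner for 230 (9.47%, against 11.9% of all pairs) and lower for 56 (2.31%, against 3.56%). limma on the log2 ratio also called none, with 250 and 86 at an unadjusted p under 0.05. The median difference was 0.08 for start clones, -0.00723 for end clones and 0.17 for middle clones. The clone and partner log2 fold changes had a rank correlation of 0.565 over 884 start clones, 0.589 over 655 end clones and 0.357 over 890 middle clones, all of which share libraries and may share reads.

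**Figure D4:**
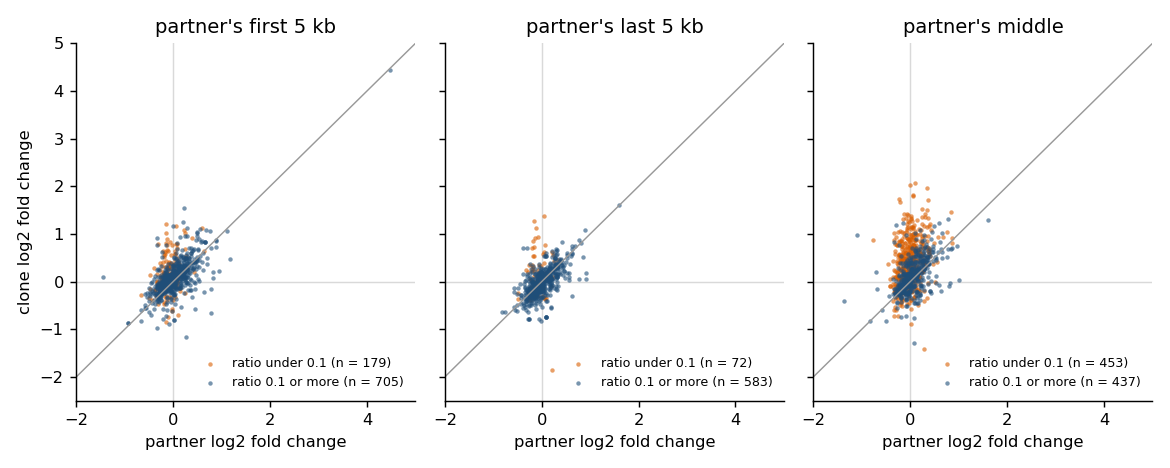
Log2 fold change of each clone (y axis) against that of its partner (x axis), 1 panel a position class, coloured by whether the RPKM ratio of clone to partner is under 0.1, with the line of equal change. Low-ratio clones of the middle class have a median difference from the partner of 0.38, and the point at the upper right of the first panel is Hspa1b, with 4.44 and 4.47.

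The clones with the smallest p for a higher ratio to the partner lay in the middle of Fbxo25, Kcnma1, Cspg5 and Ncam1. The clone antisense to Fbxo25, an F-box protein gene (fantom3_C130006C19), had 0.584, 0.623 and 0.737 CPM in the sham libraries against 1.38, 1.41 and 1.39 after ischemia/reperfusion, while Fbxo25 had 55.6, 51.1 and 54.3 against 44.9, 49.0 and 46.2. The clone was higher and the partner lower in every ischemia/reperfusion library, and the difference was 1.30 ± 0.12 (edgeR adjusted p = 0.163). The Kcnma1 clone had a difference of 0.95 ± 0.10 (edgeR adjusted p = 0.163). The antisense clone over Ncam1, the neural cell adhesion molecule (fantom3_F830004L08), had 2.01, 1.45 and 1.74 CPM in the sham libraries against 2.78, 3.04 and 3.43 after ischemia/reperfusion, a difference of 0.72 ± 0.11. The clone opposite to Cspg5, a brain proteoglycan gene (fantom3_4930577A12), had 2.74, 2.89 and 2.82 CPM in the sham libraries against 3.89, 4.36 and 3.79 after ischemia/reperfusion, a difference of 0.53 ± 0.08. The partners had 0.06 ± 0.10 (Ncam1) and -0.07 ± 0.10 (Cspg5).

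The smallest p for a lower ratio came from Cdc73 (-0.63 ± 0.10, edgeR adjusted p = 0.164), a clone antisense to Ube3a (-0.41 ± 0.08, adjusted p = 0.191), 9430091E24Rik (-0.49 ± 0.10, adjusted p = 0.198) and the end of Aff1, a gene of the super elongation complex (-0.38 ± 0.08, adjusted p = 0.199). The 9430091E24Rik clone (fantom3_D830050G17) had 22.2, 20.3 and 22.3 CPM in the sham libraries against 21.7, 15.7 and 18.2 after ischemia/reperfusion, at 4.31 times the partner's RPKM. The Aff1 clone (fantom3_9630032B01) had 1.81 to 2.35 CPM in sham and 1.54 to 2.18 in ischemia/reperfusion, so its groups overlapped.

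The direction of clone and partner was then compared. Of 221 clones higher at an unadjusted p under 0.05 with a tested partner, 65 had a partner higher at that p, 6 a partner lower at that p and 150 a partner that did not reach it. By sign alone, 55 of the 221 had a partner with a negative log2 fold change, 44 of them among 137 middle clones. Of 71 lower clones, 35 had a partner lower at that p, 0 a higher one and 36 a partner that did not reach it, and 9 had a partner of opposite sign. Of all gene rows tested, 6.39% were higher and 8.71% lower at that p, and 44.2% were above 0. Partners thus mostly went with the clone, and both may share reads where their exons overlap. Among the 6 higher clones with a lower partner were those antisense to Fbxo25, Nek6, a mitotic kinase, Fam155a, Pde4d, a cyclic AMP phosphodiesterase, and Ncaph2, a condensin subunit. These 5 clones were at 0.0147 to 0.0428 of the partner's RPKM. The Nek6 clone (fantom3_F630213N13) reached 0.207 CPM, the level of the filter on low counts (10 counts in the median library), in every ischemia/reperfusion library and in no sham library, so it entered the test only through the group where it is high and had to differ. Of the 2518 tested clones 9 were of this kind, all middle clones and all at an unadjusted p under 0.05, and 2 reached it only in sham. The Fam155a clone (fantom3_4930435N07) had 2.33, 1.81 and 1.70 CPM in the sham libraries against 2.53, 3.64 and 4.09 after ischemia/reperfusion, 0.76 ± 0.23 beside -0.28 ± 0.10. By edgeR none of these 5 passed, with adjusted p of 0.153 to 0.27 for the clone.

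Gene lists were read through their members' partners. For glutamate receptors and postsynaptic scaffolds, 9 genes of 34 had 1 antisense clone each, all 9 with a log2 fold change above 0, a median of 0.45 and 3 higher at an unadjusted p under 0.05. These 3 lay in Shank3, a scaffold (fantom3_A830050C02; 2.92, 3.20 and 3.64 CPM in sham, 4.90, 5.57 and 5.92 in ischemia/reperfusion; 0.69 ± 0.17), and at the starts of Grm7 and Grin2b, glutamate receptors (0.39 ± 0.15 and 0.57 ± 0.24). Shank3 itself had 0.78 ± 0.21, while Grin2b had 0.03 ± 0.17. For voltage-gated channels, 8 of 10 tested clones were above 0, with a median of 0.41 and 3 at that p, 2 in Kcnma1 and 1 in Cacna1c, a calcium channel (fantom3_1700080F18; 0.201, 0.291 and 0.327 CPM in sham, 0.68, 0.802 and 0.792 in ischemia/reperfusion). The Cacna1c clone had 1.41 ± 0.36 and the gene 0.30 ± 0.11. A clone in Cacna1d (fantom3_4831407H17) had -1.42 ± 0.74 beside 0.27 ± 0.11 for the gene. This clone passed the filter on low counts only through the sham libraries. For adhesion and axon guidance, 10 of 16 tested clones were above 0, with a median of 0.08 and 4 at that p, in Nrxn2, Ncam1, Tenm2 and Nrxn3. The Nrxn2 middle clone (fantom3_D030057O13) had 0.523, 0.623 and 0.962 CPM in the sham libraries against 1.48, 1.84 and 1.45 after ischemia/reperfusion, 1.12 ± 0.29, unlike the clone at the end of that gene. Over all rows tested the median was 0.02, 53.1% were above 0 and 8.73% were higher at that p. Most of the glutamate and channel clones are middle clones, many with few counts. Of all tested middle clones 68.0% were above 0, with a median of 0.20 and 14.6% higher at that p, and of middle clones under 1 CPM 76.5% were above 0, with a median of 0.39. The lists' shares above 0 thus stood beside a high share in their own class.

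Smaller lists followed. Both heat shock clones, over Hspa1b and Hsp90aa1, were higher at an unadjusted p under 0.05, as was 1 of 2 immediate early clones, that over Fosl2. For the clock list, 4 of 6 clones were above 0, with a median of 0.12 and 1 at that p, a clone in Rora (fantom3_F830003E06; 0.101 to 0.143 CPM in sham and 0.227 to 0.672 in ischemia/reperfusion) that also passed the filter on low counts only through the ischemia/reperfusion libraries. Of 9 tested clones over developmental transcription factors, 4 were above 0, with a median of -0.06, and the Mef2c clone was lower. The cytokine and NF-kB list held only the Rela clone, and the clone in Homer2, a postsynaptic scaffold, had 7.60 to 9.33 CPM in sham and 8.55 to 11.1 in ischemia/reperfusion. Partners with described natural antisense transcripts had 21 clones, 7 of them above 0, a median of -0.08 and 1 lower, and 14 of the 21 lay in Ube3a.

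Ube3a, the imprinted ubiquitin ligase whose paternal copy is silenced in neurons by an antisense transcript, had more clones than any partner other than Snora19. Its 14 clones lay at 7 loci between 6885 bases from its start and its last 5 kb, and all were at 0.0438 to 0.287 of its RPKM. The clone with the most counts in the middle (fantom3_C230008E13, chr7:59248730-59254788) had 17.2, 15.9 and 17.5 CPM in the sham libraries against 15.6, 15.1 and 14.9 after ischemia/reperfusion, -0.21 ± 0.11. A clone inside that stretch (fantom3_C130050D21) had 2.40, 2.51 and 2.62 against 1.87, 2.06 and 1.83, -0.44 ± 0.19 (edgeR adjusted p = 0.301). For both clones the groups did not overlap. The end clone (fantom3_A330053D07) had 15.1 to 17.7 and 15.5 to 21.4 CPM, 0.08 ± 0.14. The median over the 14 was -0.09, 4 were above 0 and 1 was lower at an unadjusted p under 0.05. Ube3a had 139.1 to 147.6 CPM in sham and 139.0 to 152.1 in ischemia/reperfusion, -0.03 ± 0.09. Copg2, which encodes a coatomer subunit, had 9 clones, with log2 fold changes from -0.42 to 0.23 and none at an unadjusted p under 0.05.

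**Figure D5:**
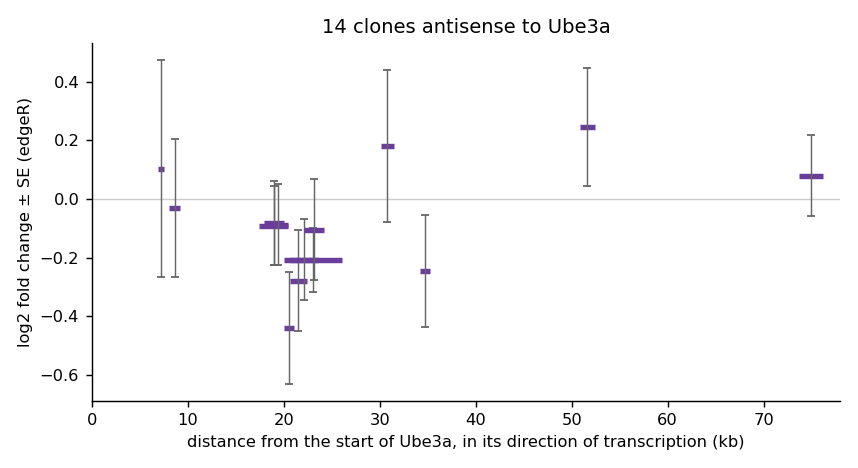
Log2 fold change with its standard error (y axis, edgeR) of the 14 clones antisense to Ube3a, each drawn as a bar over the stretch it covers, by distance from the start of Ube3a in its direction of transcription (x axis, kb). The clones between about 17 and 26 kb overlap each other and lie from -0.44 to -0.08, and those elsewhere from -0.24 to 0.25.

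The count threshold and the authors' test bear on these numbers. There were 30 clones with a summed count within 3 counts inside the threshold and 46 within 3 counts outside it, and 3479 clones at any count. By the authors' deposited table, 332 of these clones (11.8%, against 14.7% of all rows of that table) were higher at a q-value under 0.05 and 94 (3.35%, against 9.77%) lower, so both shares were below the background.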

How the data were processed

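Total RNA of 6 mouse brain libraries was depleted of ribosomal RNA, made into NEBNext Ultra RNA libraries and read paired-end, per the labels' protocols. The authors deposited raw counts and RPKM values per row, with the build mm10 per the submitters' processing notes; the sources used here do not give the aligner, counter or strand setting. Their deposited comparison table holds q-values and log2 ratios of group means. No column of per-sample values was left unused (0). Members, classes and gene lists were chosen with earlier results of these data known.

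Overlaps were found from the deposited positions in Python 3.11.15 with pandas 2.3.3; the partner is the gene row with the largest overlap, and rows without a gene on the opposite strand were left out. Counts of all rows passing filterByExpr were fitted with edgeR 4.0.16 in R 4.3.3 (TMM factors, robust quasi-likelihood test, two-sided, no covariates, Benjamini-Hochberg over 40170 rows). The clone-to-partner difference was fitted on 2 columns a library with library as a block. DESeq2 1.42.0, limma 3.58.1, other factors, filters, windows and each library left out were alternatives. CPM divide by library totals without the TMM factors, also where groups are said not to overlap, and RPKM compare rows. Only the library medians of the classes and of all rows used CPM divided by these factors. Both fits were run on simulated data with the same dispersion for all rows and both groups, and with changes only in rows of many counts. That run does not cover clones with few counts or the larger spread of the ischemia/reperfusion libraries. Depth of 45425867 to 49686109 counts sets the counting error.

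Within each class the text names the 3 higher and 3 lower clones with the smallest p among those of at least 1 CPM with groups apart and the 3 with the highest RPKM. It also names the 4 pairs with the smallest p in each direction and, for each list, the clone with the most CPM of at least 0.5. The clones of Ube3a, Copg2, 4930547E14Rik, Alad and Csrnp1, 5 opposed clones and other list members were chosen after their values were seen. Some items that these rules name are not reported here. Promoter windows came from RefSeq, GRCm38.p6.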

Additional observations from a re-analysis of the deposited data

How the results depend on the processing

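Adjusted calls among the antisense clones were 0 with RLE and upper-quartile factors, a mean of at least 1 CPM, the replicate block, a summed count of at least 100, 50% of the clone covered by 1 partner and both alternatives chosen after seeing the data (without partners of merged span, 1 clone a locus). They were 2 with no filter (77 of 54371 rows in all), 29 by DESeq2, 1 by limma-voom, and 0 to 50 with 1 library left out. Clones higher at an unadjusted p under 0.05 (224) numbered 140 to 278 with 1 library left out, the lowest without sham replicate 1; lower ones (74) numbered 36 to 133, the fewest without sham replicate 1 and the most without ischemia/reperfusion replicate 1, and 49 without ischemia/reperfusion replicate 3. The lower count was 46 at a mean of at least 1 CPM and 49 with 50% coverage, where fewer clones were tested. Class medians moved with upper-quartile factors to 0.0877 (start) and 0.0112 (end, reversing its sign; that scaling moved the median of all rows from 0.02 to 0.07), with 2 and 10 kb windows to -0.0461 and -0.0064 (end), with the last 5 kb first to 0.0836 (start). With 1 library left out the end median was -0.0737 at its lowest (without ischemia/reperfusion replicate 1) and the middle median 0.14 (without ischemia/reperfusion replicate 2); the ranges were 0.03 to 0.05 (start), -0.0737 to -0.021 (end) and 0.14 to 0.23 (middle). In sham libraries alone the RPKM ratio was 0.297 (start) and 0.0849 (middle).

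Clone-to-partner calls stayed 0 in every alternative run; higher ratios at an unadjusted p under 0.05 (230) numbered 173 to 255 with 1 library left out, and lower ratios at an unadjusted p under 0.05 (56) numbered 86 with limma and 32 to 82 with 1 library left out, 32 without sham replicate 1 and 34 with ischemia/reperfusion replicate 3 left out. Same-numbered libraries had correlations of -0.0678, 0.0337 and 0.11, and not every library correlated best with its own number. No pairing by number was thus seen, but 3 libraries a group are too few to exclude one. The replicate block gave 0 calls, with 195 clones higher at an unadjusted p under 0.05 and 73 lower, and 0 pair calls, with 211 and 57. Of 41 named clones 37 kept their direction in all alternatives run. Reversed were Bace1 (0.00691) and Nrxn2 (0.00458) without sham replicate 1, Nrxn2 (0.0149) without sham replicate 3, the Snora19 clone without sham replicate 1 (-0.0241), without sham replicate 3 (-0.00757) or ischemia/reperfusion replicate 1 (-0.0914), and Psd with upper-quartile factors (0.0196) and without ischemia/reperfusion replicate 3 (0.0694). With 1 library left out, these ranged from -0.143 to 0.00691 (Bace1), -0.168 to 0.0149 (Nrxn2), -0.0914 to 0.115 (Snora19) and -0.141 to 0.0694 (Psd). The causes were not tested. Clones at the threshold rest on 30 counts over 6 libraries.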
